A study of Mus musculus with 28 samples.

Results

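The comparison described here asked how macrophages that had engulfed apoptotic conventional CD4 T cells (Tconv) differed from macrophages sorted as non-phagocytic, under IFN-γ. Its members were the 4 libraries labelled IFN-γ Tconv-phagocytic and the 4 labelled IFN-γ non-phagocytic, taken by their labels, which are 8 of the 28 libraries of the series. All libraries are poly(A) RNA of macrophages that were differentiated in vitro from the bone marrow of wild-type mice. Cultures held IFN-γ or IL-10 at 50 ng/mL, or no cytokine (M0), for 48 h. In the co-cultures T cell death had been induced by ATP/NAD+ and the T cells carried a fluorescent antibody to CD4, and the macrophages were sorted by whether they carried the dye. Of the 4 Tconv-phagocytic libraries, 2 were from uptake of cells stained with BV421 and 2 with Ax647, and for these libraries the titles and the library names give the same dye. For orientation the text also uses the 4 IL-10 Tconv-phagocytic, 4 IL-10 non-phagocytic, 4 IFN-γ Treg-phagocytic (regulatory T cells engulfed) and 4 M0 libraries. The M0 labels name no T cells, although the series counts a non-polarizing condition among its co-cultures. Nothing in the labels says whether the replicates came from separate animals or cultures, so the p-values measure only the spread between these libraries. Non-phagocytic macrophages had been in the same kind of culture, so the sort separated cells by dye and not by contact with dead cells. The sort gates are not given in the sources used here, and the non-phagocytic libraries held about as much T cell RNA as the Tconv-phagocytic ones, so non-phagocytic is used below as the name of the sorted group only.

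Engulfment of dying cells, efferocytosis, starts when bridging proteins and receptors such as MERTK and AXL recognise phosphatidylserine on the dying cell. The cargo is then digested in lysosomes, its cholesterol is exported through LXR-driven transporters such as ABCA1, and the macrophage typically shifts toward a pro-resolving state. IFN-γ acts through JAK kinases and gamma-activated sites (GAS) in promoters, and induces IRF1, the class II transactivator CIITA, guanylate-binding proteins and the chemokine CXCL9.

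Relative depth, read from the smallest steps in the values because the files hold no counts, reached 18.7% to 22.5% of the series maximum in the non-phagocytic libraries and 21.0% to 24.4% in the Tconv-phagocytic ones. Between 15376 and 16295 genes had a value above 0. Pearson correlations of log2 values were 0.956 to 0.963 within the non-phagocytic group, 0.962 to 0.969 within the Tconv-phagocytic group and 0.956 to 0.966 between the groups, so libraries of different groups were as alike as libraries of the same group. Macrophage genes were abundant in all 8 libraries. Adgre1, which encodes F4/80, lay between 475 and 576 TPM, and Csf1r, the CSF-1 receptor, between 385 and 478 TPM. The summed level of 18 macrophage identity genes was 23500 ± 292 TPM in the non-phagocytic group and 23320 ± 1051 TPM in the Tconv-phagocytic group (SD, n = 4 each).

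No gene passed the test. Of 12134 genes tested, 0 (0%) were called at an adjusted p under 0.05 (limma, Benjamini-Hochberg, two-sided), while 787 (6.49%) had an unadjusted p under 0.05. The values of the 4 Tconv-phagocytic libraries lay wholly above those of the 4 non-phagocytic libraries for 184 genes (1.52%) and wholly below for 143 (1.18%). These counts require separation both as deposited and after scaling, a definition chosen after both were seen: as deposited alone the counts were 338 and 143, and after scaling alone 184 and 280. The data still bound what could have been missed on the log2(TPM + 1) scale. That scale understates the change of low genes, so for them the fold change in TPM is bounded less tightly. The 95% confidence interval of the difference lay within a log2 change of 1 in either direction for 10238 genes, 84.4% of those tested. That share was 58.7% for genes under 5 TPM in the higher group and 99.2% for genes over 100 TPM. Only 156 genes had an estimate of at least 1 in size on the log2 scale. A single model of all 28 libraries, which lets the deeper IL-10 and M0 libraries set the spread, called 116 of 13631 genes (0.851%), 48 higher and 68 lower. Of these, 110 were tested in the fit of the 8 libraries, and all 110 had an unadjusted p under 0.05 there, which is no independent support because both models take the difference from the same 8 libraries.

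**Figure D1:**
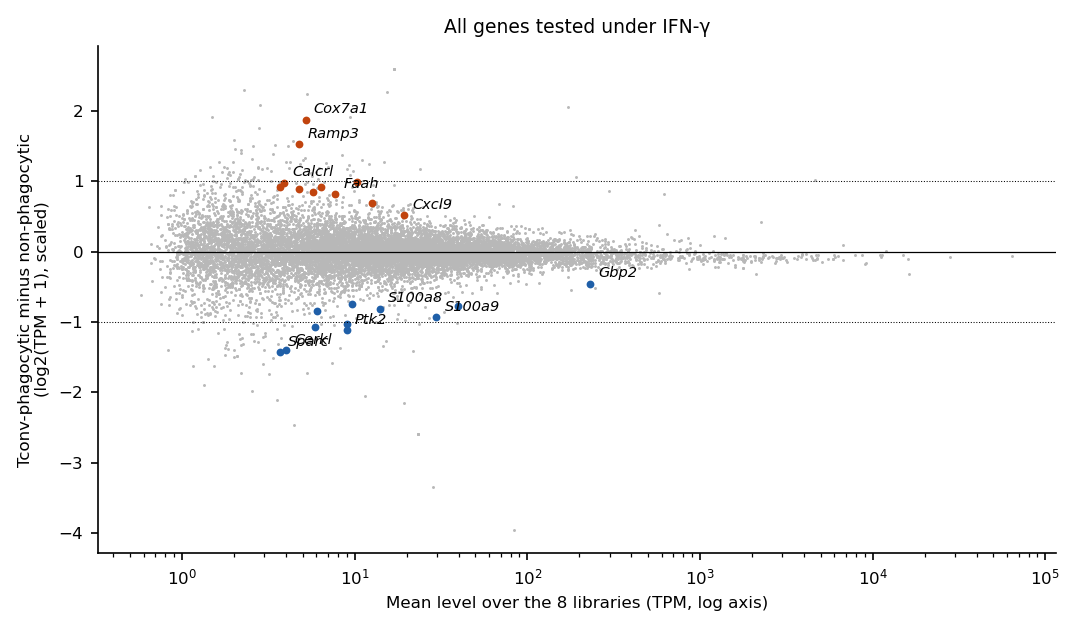
Difference between IFN-γ Tconv-phagocytic and non-phagocytic libraries (vertical axis, scaled log2(TPM + 1)) against the mean level over the 8 libraries (horizontal axis, TPM, log axis), with 1 grey point per gene of 12134 tested. Red and blue points are named genes with higher and lower estimates, dotted lines mark a log2 change of 1, and the scatter narrows as the level rises.

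Among separated genes that met the naming rule, the largest difference with a low spread was in Ramp3 (ENSMUSG00000041046, mm10 chr11:6658521-6677475). The rule asks for a mean of at least 5 TPM in the higher group and leaves out predicted genes and pseudogenes. RAMP3 is a single-pass membrane protein that pairs with the calcitonin receptor-like receptor to make a receptor for adrenomedullin. Ramp3 stood at 1.69, 2.47, 1.70 and 1.69 TPM in the non-phagocytic libraries and at 6.06, 9.59, 7.82 and 7.03 TPM in the Tconv-phagocytic ones, where 1 read is worth about 0.29 TPM. The groups were far apart. The log2 difference was 1.56 from the BV421 and 1.495 from the Ax647 libraries alone, a shared sign that the choice of the gene fixed, since both use the same non-phagocytic libraries. The log2 difference over all 8 libraries was 1.53 (SE 0.19, limma adjusted p 0.0815), which missed the threshold, and the model of all 28 libraries gave 1.56 (adjusted p 0.00804). Over the alternatives tried, its adjusted p ran from 0.00804 to 0.692.

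Calcrl, which encodes that partner receptor, was also among the 10 largest higher estimates of separated genes that met the rule. It stood at 2.19, 1.68, 2.48 and 2.13 TPM in non-phagocytic libraries, and at 3.23 and 4.37 TPM in the BV421 and 8.87 and 6.05 TPM in the Ax647 libraries. All 4 Tconv-phagocytic values were above all 4 others, with the Ax647 pair highest (log2 0.98, SE 0.26, limma adjusted p 0.548). The model of all 28 libraries gave 1.00 (adjusted p 0.0224). The other members of this receptor family and its ligands were looked up after these values were seen. Ramp1, the partner for the CGRP receptor, lay between 9.16 and 14.4 TPM in non-phagocytic and 11.5 and 19.5 TPM in Tconv-phagocytic libraries, which overlap. Ramp2 was listed at 0 in 7 of the 8 libraries. Adm, the gene of adrenomedullin, was at 0 to 0.59 TPM in non-phagocytic libraries and at 0, 3.63, 3.74 and 0 TPM in the Tconv-phagocytic ones, so 2 libraries of different dyes held all of the higher signal.

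Among the remaining higher estimates, Cox7a1, a subunit of cytochrome c oxidase, was listed at 3.90, 5.25, 0 and 0 TPM against 10.5, 9.86, 5.97 and 5.99 TPM. With 1 read worth about 1.3 TPM these are few reads, and the estimate of 1.87 had an SE of 0.60. Rassf7, of the Ras association domain family, lay between 4.57 and 9.18 TPM against 10.5 and 18.3 TPM (log2 0.99, SE 0.22). Unkl, an unkempt-like zinc finger gene, lay between 3.23 and 4.61 TPM against 7.35 and 11.1 TPM (log2 0.91, SE 0.18). Faah encodes the hydrolase of the endocannabinoid anandamide. It stood between 4.58 and 5.57 TPM in non-phagocytic and at 14, 8.87, 9.50 and 8.65 TPM in Tconv-phagocytic ones (log2 0.81, SE 0.18). Hells, a chromatin remodeller of dividing cells, Proscos, Rbm19 and P3h3, a collagen prolyl hydroxylase, completed the 10 with log2 estimates of 0.91, 0.89, 0.84 and 0.69. The adjusted p of these 8 genes was between 0.472 and 0.582 (limma), so none differed beyond what the spread of 4 against 4 libraries allows after correction.

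**Figure D2:**
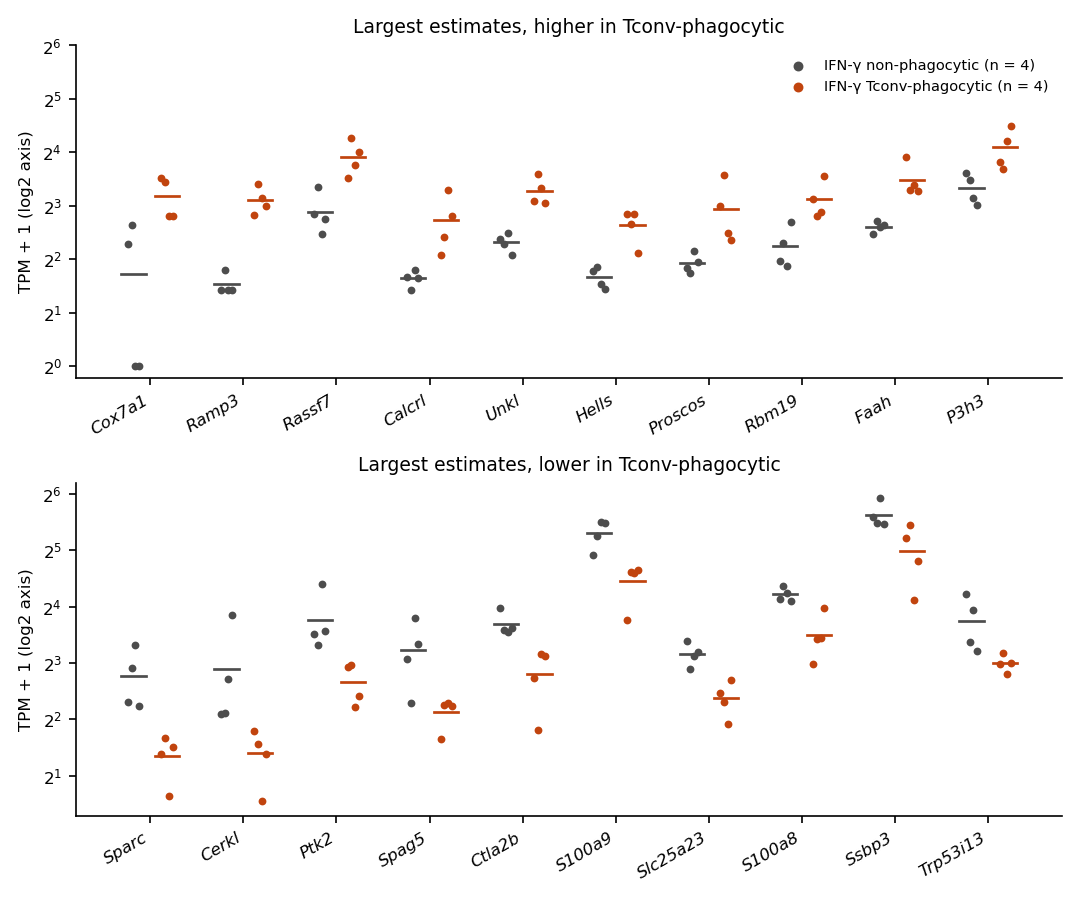
Level (TPM + 1, log2 axis) in each of the 4 non-phagocytic (grey) and 4 Tconv-phagocytic (red) IFN-γ libraries of the 10 genes with the largest higher (top) and the 10 with the largest lower (bottom) estimate, with bars at the group means. By the rule that chose them no gene's groups overlap, and Ramp3 shows the tightest separation of the upper panel.

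On the lower side the calprotectin subunits stood together. S100a9 and S100a8 lie next to each other on chromosome 3 (chr3:90692632-90695721 and chr3:90668978-90670035) and encode a calcium-binding pair that is most abundant in neutrophils and young monocytes. S100a9 was at 29.1, 37.0, 44.6 and 43.5 TPM in non-phagocytic and at 12.6, 23.5, 23.3 and 24.3 TPM in Tconv-phagocytic libraries. S100a8 was at 16.7, 19.7, 18.0 and 16.1 TPM against 6.92, 9.68, 9.83 and 14.8 TPM. Both were lower in every Tconv-phagocytic library, by log2 -0.93 (SE 0.21) and -0.81 (SE 0.19), each with a limma adjusted p of 0.472. Only S100a9 was called in the model of all 28 libraries (-0.92, adjusted p 0.00804, against 0.262 for S100a8). Ngp, a neutrophil granule gene, was at 5.47 to 5.70 TPM against 3.68 to 5.27 TPM (log2 -0.31, SE 0.16).

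Of the 12 neutrophil markers, 5 were tested, and these 3 did not overlap between the groups, all lower, beside 1.18% of all genes. The other tested members, Ltf and the collagenase Mmp8, had higher estimates, at 0.54 ± 0.72 against 2.01 ± 1.40 TPM and at 5.29 ± 0.89 against 6.22 ± 1.02 TPM (SD, n = 4). The 12 members summed to 56.4 to 76.1 TPM in non-phagocytic and 34.3 to 50.6 TPM in Tconv-phagocytic libraries. That gap was carried by S100a8 and S100a9, since without them the sums were 10.7 to 16.8 and 11.6 to 16.95 TPM, which overlap. The defining marker Ly6g was listed at 0 in all 8 libraries. In bulk RNA, fewer cells of a type and less RNA of these genes per cell cannot be told apart.

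Sparc, a matrix-binding secreted glycoprotein typical of fibroblasts, had the largest lower estimate among genes that met the naming rule, which leaves out predicted genes and pseudogenes. It stood at 3.92, 6.56, 8.96 and 3.74 TPM in non-phagocytic and at 1.62, 2.19, 0.56 and 1.84 TPM in Tconv-phagocytic ones (log2 -1.43, SE 0.31, limma adjusted p 0.472, and 0.00862 in the model of all 28 libraries). The 18 stromal markers summed to 18.3 to 21.9 TPM against 9.87 to 14.7 TPM, but without Sparc to 12.95 to 16.8 against 8.03 to 14.1 TPM, which overlap. All 4 members tested had lower estimates with a median of -0.66, while Dcn, too low to be tested, was at 0.34 ± 0.31 against 1.40 ± 0.80 TPM (SD, n = 4). Both summed ranges are small beside the 209 to 245 TPM of the M0 libraries, and the collagen gene Col1a1 was at 0.84 ± 0.20 against 0.68 ± 0.21 TPM (SD, n = 4).

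Ptk2, which encodes focal adhesion kinase, was at 10.4, 9.04, 20.2 and 10.8 TPM against 6.61, 6.80, 3.65 and 4.31 TPM (log2 -1.12, SE 0.27). Cerkl, a ceramide kinase-like gene, was at 3.28, 3.30, 5.54 and 13.4 TPM against 2.48, 1.97, 0.47 and 1.62 TPM (log2 -1.40, SE 0.42). In both genes 1 non-phagocytic library stood well above the other 3. Spag5, a mitotic spindle gene, Ctla2b, Slc25a23, a mitochondrial carrier, Ssbp3 and Trp53i13 had log2 estimates of -1.07, -1.03, -0.85, -0.77 and -0.75. The adjusted p of these 7 genes lay between 0.472 and 0.582 (limma). The rule for separated genes named 31, the 10 largest estimates in each direction and list members. Each had a mean of at least 5 TPM in the higher group. Genes named for other reasons, such as Amt, Ppbp and Ada, also separated and are not counted here. All 31 had the same sign from the BV421 libraries alone and from the Ax647 libraries alone, and 12 of the 31 were called in the model of all 28 libraries. Since the rule chose genes by separation, that count is no independent support.

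The lowest adjusted p of all belonged to Gm38317, a processed pseudogene that was listed at 2.87, 2.55, 2.86 and 2.43 TPM in non-phagocytic libraries and at 0 in all 4 Tconv-phagocytic ones (limma adjusted p 0.0804). With 1 read worth about 2.2 TPM this is about a read per library. The immunoglobulin segment Igkv10-96 was the mirror image, at 0 in all 4 non-phagocytic libraries and at 4.33, 2.03, 1.83 and 3.68 TPM in the others (adjusted p 0.144), with 1 read worth about 1.9 TPM. Both genes were singled out after their values were seen. How the authors' quantification shared reads between a pseudogene and its parent is not given in the sources used here, so such levels are uncertain.

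A co-culture can leave RNA of T cells in libraries of sorted macrophages. T cell genes measure that RNA, but not whether it came from engulfed cells. The 25 T cell markers summed to 748, 928, 1195 and 817 TPM in non-phagocytic libraries and to 1039, 901, 1102 and 1107 TPM in Tconv-phagocytic ones. The ranges overlap, and the highest sum of all was in a non-phagocytic library. Cd4, the antigen of the sorting antibody, was at 27.4, 25.7, 43.5 and 15.01 TPM against 31.1, 31.0, 29.5 and 35.0 TPM. Cd3e was at 21.7 ± 6.61 against 23.3 ± 5.22 TPM (SD, n = 4). The T cell receptor constant gene Trac was at 50.4 to 88.0 TPM against 54.0 to 81.5 TPM. Among the 25 members, 0 were called, 18 had higher and 7 lower estimates, and the median log2 difference was 0.15, against -0.01 over all genes tested. Without scaling 23 were higher and 2 lower, with a median of 0.20 against 0.04. The surface gene Thy1, at 35.5 ± 6.21 and 47.0 ± 8.26 TPM (SD, n = 4), had the lowest p of the list (log2 0.34, 95% confidence interval 0.02 to 0.66, limma adjusted p 0.743).

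The M0 libraries gave 229 to 365 TPM for the same 25 genes, the IL-10 non-phagocytic libraries 212 to 231 TPM and the IL-10 Tconv-phagocytic libraries 254 to 311 TPM. Every non-phagocytic IFN-γ library thus held a higher T cell sum than any of these 12 libraries, and uptake status did not separate the sums under IFN-γ. Treg markers behaved likewise, with sums of 110 to 171 TPM in non-phagocytic and 113 to 155 TPM in Tconv-phagocytic libraries. Foxp3, which defines regulatory T cells, was at 14.9, 13.3, 19.97 and 11.0 TPM against 17.6, 10.1, 15.3 and 12.8 TPM, although the labels give only Tconv as the cells engulfed. B cell markers summed to 82.9 to 146 TPM against 85.7 to 123 TPM. The part of such foreign RNA in any difference was not tested.

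**Figure D3:**
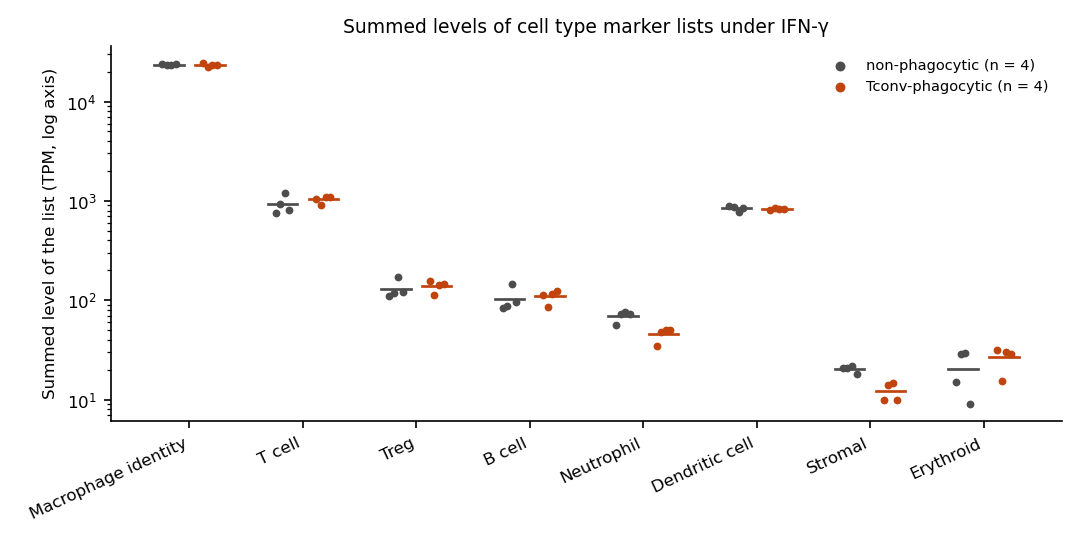
Summed level of each cell type marker list (TPM, log axis) in the 4 non-phagocytic (grey) and 4 Tconv-phagocytic (red) IFN-γ libraries, with bars at the means. The T cell, Treg and B cell sums overlap between the groups, while the neutrophil and stromal sums are lower in all 4 Tconv-phagocytic libraries. The neutrophil ranges overlap without S100a8 and S100a9, and the stromal ranges without Sparc. Without Sparc the stromal mean is still lower, at 14.7 ± 1.60 TPM in non-phagocytic against 10.6 ± 2.91 TPM in Tconv-phagocytic libraries (SD, n = 4).

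The IFN-γ response was at a like level in both groups. Of 35 genes tested, 0 were called, 17 had higher and 18 lower estimates, and the median was -0.02, which without scaling became 21 higher, 14 lower and 0.02. Leaving out scaling moved the median of all genes from -0.01 to 0.04. Ciita was at 9.13, 8.76, 4.74 and 7.72 TPM without uptake against 8.93, 10.8, 8.52 and 10.3 TPM. The checkpoint ligand Cd274 was at 171 ± 6.34 and 174 ± 13.45 TPM (SD, n = 4; 95% confidence interval -0.18 to 0.11). For Cd274 a log2 change of 1 in either direction lies outside the interval.

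Within the list, genes of the same pathway leaned in opposite directions. Cxcl9, a chemokine that draws activated T cells, was the 1 member of 35 whose groups did not overlap, while 1.52% of all genes separated higher and 1.18% lower. Cxcl9 stood at 13.6, 17.2, 15.1 and 15.6 TPM against 23.9, 19.9, 25.7 and 24.2 TPM (log2 0.52, SE 0.12, limma adjusted p 0.472). Gbp2, a guanylate-binding GTPase, leaned lower, at 279, 281, 221 and 268 TPM against 153, 246, 204 and 197 TPM (log2 -0.46, SE 0.13, limma adjusted p 0.562). Its groups overlapped by 1 library. Irf1 leaned higher, at 213, 205, 189 and 190 TPM against 200, 295, 245 and 236 TPM (log2 0.22, SE 0.10, limma adjusted p 0.752). The other guanylate-binding proteins did not follow Gbp2, with estimates of -0.18 for Gbp3, 0.19 for Gbp4, -0.09 for Gbp5 and 0.02 for Gbp7, and the differences between these genes were not tested. The class II genes Cd74, H2-Ab1 and H2-Aa were lower by estimate, by log2 -0.16, -0.17 and -0.15 (limma adjusted p 0.582, 0.746 and 0.695), and the class I light chain B2m by -0.11. Genes over 100 TPM in general leaned lower in Tconv-phagocytic libraries, with a median of -0.05 over 1156 such genes, 366 higher and 790 lower, a lean that vanished without scaling (594 higher and 562 lower). These class II genes and B2m are all that abundant.

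The promoters of Irf1, Gbp2 and Cxcl9 are shown because, in RefSeq's GRCm38.p6 sequence, they differ in matches to strict letter patterns of interferon elements. Of the 3, 1 holds a GAS match, 1 an ISRE match and 1 neither. Each line gives the 250 bases before an annotated start, 5′ to 3′ on the gene's strand. Irf1 has 2 annotated starts, and its window with the most matches is shown. Gbp2 and Cxcl9 have 1 start each. Capitals mark a match to the GAS letters TTCNNNGAA, which read the same on both strands, or to an interferon-stimulated response element (ISRE) core, GAAANNGAAA or its reverse TTTCNNTTTC.
Irf1 promoter, plus strand, chr11:53769764-53770013: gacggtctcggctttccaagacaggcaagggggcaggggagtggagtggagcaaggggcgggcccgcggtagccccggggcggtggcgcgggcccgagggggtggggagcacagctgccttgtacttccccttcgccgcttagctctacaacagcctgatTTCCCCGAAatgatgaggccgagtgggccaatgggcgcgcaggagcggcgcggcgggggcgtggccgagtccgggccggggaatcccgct
Gbp2 promoter, plus strand, chr3:142620413-142620662: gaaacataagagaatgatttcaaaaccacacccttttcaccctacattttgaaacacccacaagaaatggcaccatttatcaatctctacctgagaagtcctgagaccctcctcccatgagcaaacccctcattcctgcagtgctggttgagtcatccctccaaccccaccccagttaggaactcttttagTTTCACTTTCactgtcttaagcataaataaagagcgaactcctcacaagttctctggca
Cxcl9 promoter, minus strand, chr5:92328080-92328329: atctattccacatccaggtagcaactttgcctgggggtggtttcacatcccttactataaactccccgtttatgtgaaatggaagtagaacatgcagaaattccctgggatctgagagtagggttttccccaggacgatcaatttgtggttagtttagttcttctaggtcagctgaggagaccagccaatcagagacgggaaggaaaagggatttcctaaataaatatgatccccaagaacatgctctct
The Irf1 window shown holds 1 GAS match that begins 90 bases before its start, while the window of the other Irf1 start holds neither pattern. Gbp2 holds 1 ISRE match that begins 59 bases before its start, and neither pattern is in the Cxcl9 window. Of all 32851 promoters searched, 7.02% held the GAS letters and 2.98% the ISRE letters. Among the 31 promoters of the 26 IFN-γ response genes with an entry the shares were 25.8% and 35.5%. These matches describe letters only, so a window without a match can still hold an interferon element of other letters.

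Type I interferon genes showed 2 of 27 members without overlap, both lower (1.18% of all genes were). Rtp4, an interferon-induced chaperone, was at 41.2, 38.3, 50.7 and 44.7 TPM against 35.2, 36.3, 32.6 and 34.0 TPM (log2 -0.38, SE 0.10, limma adjusted p 0.547). Ifi27l2a was at 546 to 621 TPM against 530 to 544 TPM (log2 -0.15, SE 0.05). The list median was -0.01, Isg15 was at -0.02 and Irf7 at -0.12, and 0 were called.

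The machinery of engulfment and digestion showed no called gene. Among 27 genes of phosphatidylserine recognition, 0 were called, 12 had higher and 15 lower estimates (16 and 11 without scaling), and the estimates ran from -0.24 to 0.23. Mertk was at 20.4, 21.9, 21.5 and 22.2 TPM against 19.6, 27.97, 25.3 and 25.8 TPM (log2 0.12, 95% confidence interval -0.13 to 0.38). Axl was at 51.7, 50.7, 38.6 and 39.7 TPM against 34.8, 38.3, 39.4 and 44.8 TPM (log2 -0.24, 95% confidence interval -0.52 to 0.03). Neither receptor's groups separated. Lysosomal genes leaned lower in number, 30 of 37 against 7 higher, with a median of -0.05 and estimates from -0.18 to 0.11, but without scaling 20 were higher and 17 lower and the median was 0.01. That median is close to that of all genes over 100 TPM, and 0 of the 37 were called or separated. The lysosomal protease Ctsd was at 4770 ± 106.6 TPM without and 4819 ± 277 TPM with uptake (SD, n = 4).

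No gene of lipid handling was called. The LXR list had 23 members tested, 0 called and a median of 0.01. The cholesterol exporter Abca1 was at 12.2, 12.2, 12.2 and 15.1 TPM against 12.99, 10.3, 13.1 and 13.5 TPM (log2 -0.10, 95% confidence interval -0.41 to 0.20). Apoe, the apolipoprotein that carries exported cholesterol, was at 11575 to 11692 TPM against 11764 to 12387 TPM. Its deposited values separate, but on the scaled values they overlap and the log2 difference was 0.01 (95% confidence interval -0.05 to 0.08). Pparg, a nuclear receptor of lipid metabolism, was the 1 separated member of the 23, at 22.8 to 26.5 TPM against 20.2 to 22.2 TPM (log2 -0.24, SE 0.10, limma adjusted p 0.729). Of all genes, 1.18% separated lower. Cholesterol synthesis genes had a median of 0.08 over 23 members, none called or separated, with wide intervals for some, such as -0.01 to 0.99 for Lss, the lanosterol synthase gene, picked for its interval.

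Genes that handle cargo nucleic acid had 3 separated members of 27, 2 lower and 1 higher (1.18% and 1.52% of all genes). Trex1, the exonuclease that degrades cytosolic DNA, was at 44.3, 43.3, 42.2 and 48.2 TPM against 39.5, 38.3, 25.7 and 32.7 TPM (log2 -0.45, SE 0.14, limma adjusted p 0.571). The nucleoside transporter Slc29a1 was at 119 to 123 TPM against 105 to 118 TPM (log2 -0.15). Adenosine deaminase, Ada, was at 0.60 ± 0.23 against 1.19 ± 0.15 TPM (SD, n = 4), near the level of a few reads. Ncf1, the p47 subunit of the phagocyte NADPH oxidase, was higher in all 4 libraries, at 222, 228, 207 and 216 TPM against 238, 285, 273 and 264 TPM (log2 0.22, SE 0.06, limma adjusted p 0.562, and 0.0268 in the model of all 28 libraries). It was the only one of 18 genes of that list to separate, beside 1.52% of all genes that separated higher. The catalytic subunit Cybb did not separate (log2 0.02, 95% confidence interval -0.19 to 0.24).

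The 20 genes of the immediate early and heat shock list included 2 separated members, both higher (1.52% of all genes were). Dnajb1, an HSP40 co-chaperone, was at 13.6, 13.7, 17.4 and 13.5 TPM against 20.1, 29.5, 22.5 and 21.0 TPM (log2 0.58, SE 0.14, limma adjusted p 0.472, and 0.0152 in the model of all 28 libraries). Hspa8, the constitutive HSP70, was at 746 to 809 TPM against 851 to 1039 TPM (log2 0.19, SE 0.06). Hsph1, at 16.7 ± 5.08 and 27.1 ± 8.21 TPM, and Hspa1b, at 488 ± 60.1 and 661 ± 119 TPM (SD, n = 4), leaned the same way but overlapped. The list had a median of 0.05, and Fos and Egr1 were at -0.04 and 0.04.

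Cytokine and resolution genes gave 0 calls. Of 16 cytokine and chemokine genes tested, 11 had higher and 5 lower estimates, and 14 and 2 without scaling. Tnf was at 22.7, 12.6, 19.9 and 16.5 TPM against 15.4, 18.3, 18.8 and 19.5 TPM, Il1b at 2.81 ± 0.75 against 4.00 ± 0.95 TPM and Il10 at 2.66 ± 0.74 against 1.79 ± 0.67 TPM (SD, n = 4). The 95% confidence interval of the log2 difference was wide for Il1b, at -0.15 to 0.85, and for Il10, at -1.005 to 0.13. Tgfb1 differed by 0.01 (95% confidence interval -0.16 to 0.18). Tnfaip3, the NF-κB inhibitor A20, was the 1 separated member of 18 tested in the pro-resolving list, beside 1.52% of all genes that separated higher. Tnfaip3 was at 19.5 to 22.9 TPM against 24.4 to 31.3 TPM (log2 0.30, SE 0.12, limma adjusted p 0.699). Arg1 was listed at 0 in all 8 libraries. Of 17 checkpoint and adhesion genes, 12 Fc receptor genes, 13 purinergic genes, 17 replication-dependent histone genes and 22 cell cycle genes, 0 were called and 0 separated. The adenosine receptor Adora2a had the lowest p of the purinergic list, at 2.26 ± 0.73 and 4.87 ± 1.42 TPM (SD, n = 4; log2 0.80 with a limma adjusted p of 0.571).

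**Figure D4:**
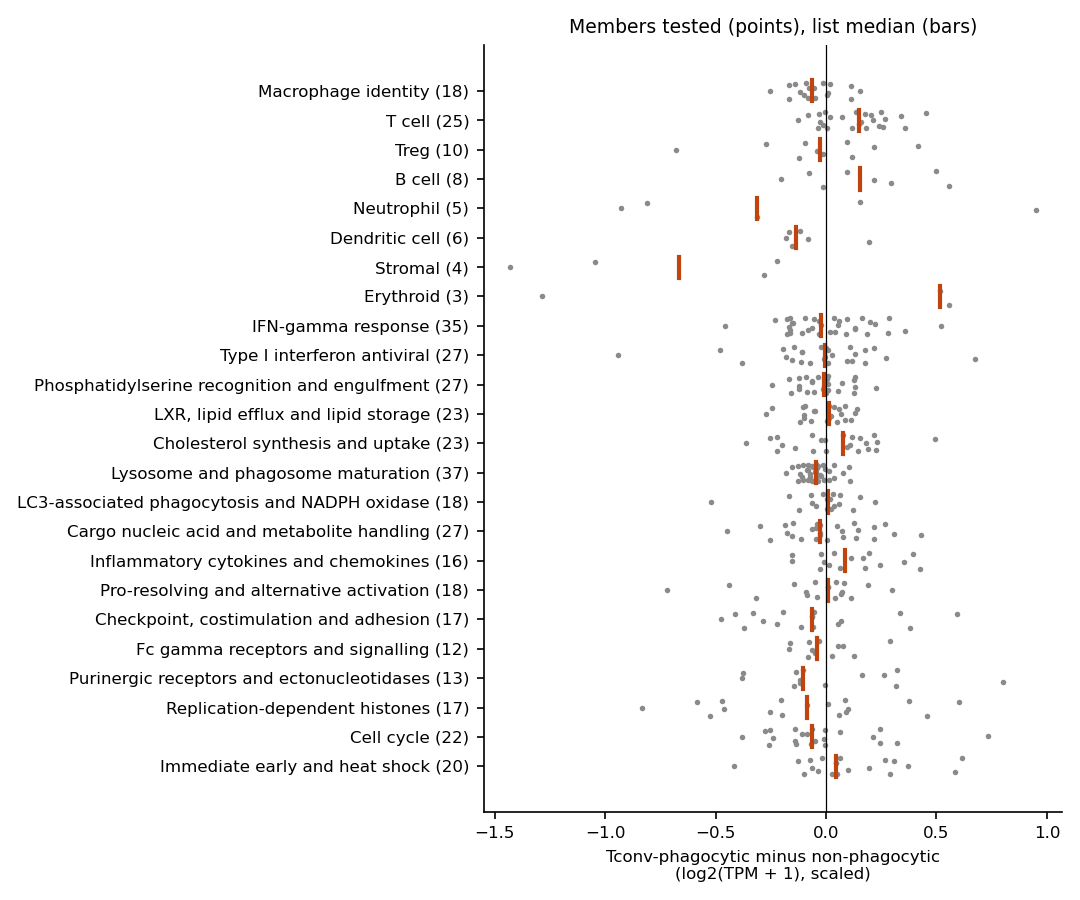
Log2 difference between IFN-γ Tconv-phagocytic and non-phagocytic libraries (horizontal axis) for each member tested of 24 gene lists (grey points, number tested in brackets), with the list median as a red bar. Medians of the pathway lists lie between -0.11 and 0.09. The neutrophil, stromal and erythroid medians, at -0.31, -0.66 and 0.52, rest on 5, 4 and 3 genes.

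The same sort under IL-10 gave a yardstick, tested as the difference between the 2 uptake differences in 16 libraries. Of 13075 genes, 32 (0.245%) had a higher and 204 (1.56%) a lower uptake difference under IFN-γ than under IL-10 (limma, adjusted p under 0.05). That split depended on scaling: without it 78 were higher and 43 lower, and the median over all genes moved from -0.01 to 0.11. The IL-10 libraries were the deeper ones.

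Vcam1, an integrin ligand, showed the contrast most plainly. It stood at 4.36 ± 1.24 and 6.48 ± 2.73 TPM in IFN-γ non-phagocytic and Tconv-phagocytic libraries, and at 0.90 ± 0.14 and 11.2 ± 1.83 TPM in the IL-10 ones (SD, n = 4). The difference of differences was -2.28 (SE 0.34, limma adjusted p 0.00246). Axl stood at 45.2 ± 7.001 and 39.3 ± 4.15 TPM under IFN-γ and at 26.2 ± 3.71 and 57.9 ± 5.12 TPM under IL-10 (-1.43, SE 0.16, limma adjusted p 0.000253). Mmp12, the macrophage elastase, went the other way: it was 181 ± 10.2 and 163 ± 19.3 TPM under IFN-γ, a log2 difference of -0.22, but -1.56 under IL-10 (difference 1.34, SE 0.10, limma adjusted p 3.05e-06). All 3 calls held in each of the 26 alternatives tried. Ramp3, by contrast, was low under IL-10, at 0.50 ± 0.30 and 0.71 ± 0.47 TPM (SD, n = 4), and its difference of 1.37 (SE 0.29, limma adjusted p 0.0231) lost its call in 9 of 26 alternatives, among them a pseudocount of 0.1 (adjusted p 0.301), the replicate block by file number (0.0628) and leaving out IL-10 non-phagocytic 1 or 2 or IL-10 Tconv-phagocytic BV421-1 or Ax647-2 (0.0553 to 0.0567).

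**Figure D5:**
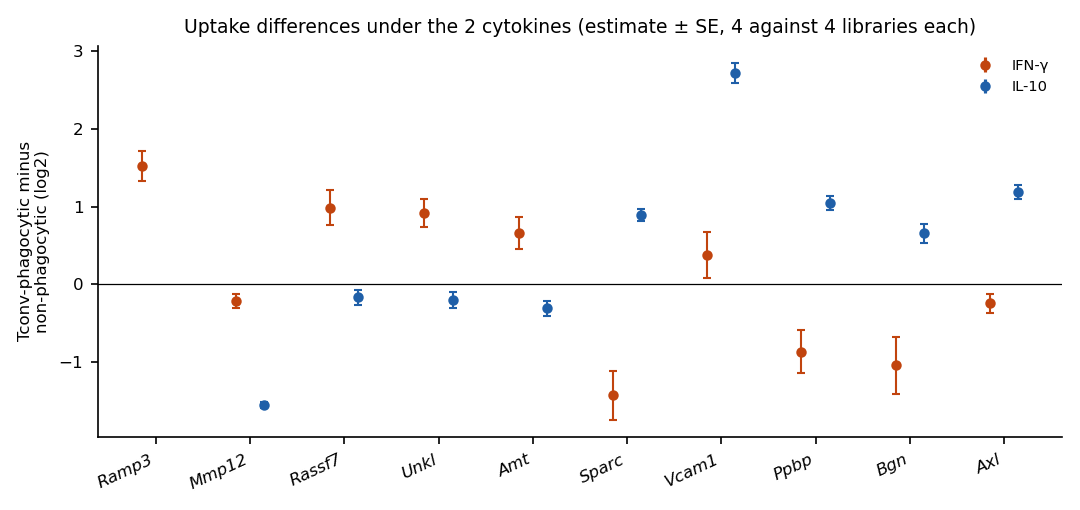
Log2 difference between Tconv-phagocytic and non-phagocytic libraries (vertical axis, estimate ± SE, 4 against 4 libraries) under IFN-γ (red) and IL-10 (blue) for the 10 genes with the largest called differences between the cytokines. Ramp3 has no IL-10 point because it was too low there to be tested, and Vcam1 reaches 2.72 under IL-10 against 0.38 under IFN-γ.

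Class II presentation genes differed in the same sense. Cd74 was at 2825 ± 169 and 2623 ± 144 TPM in IFN-γ non-phagocytic and Tconv-phagocytic libraries and at 2277 ± 21.5 and 3273 ± 84.5 TPM in the IL-10 ones (SD, n = 4), a difference of -0.76 (SE 0.06, limma adjusted p 4.89e-06). H2-Aa, H2-Ab1 and H2-Eb1 gave -0.85, -0.71 and -0.78 (limma adjusted p 3.95e-06, 0.000425 and 0.000591), and all 4 calls remained without scaling. In the IFN-γ response list 6 of 35 members were called lower, in the LXR list 6 of 23 and in the lysosome list 5 of 37, beside 1 higher, against 1.56% lower and 0.245% higher over all genes. Of the 6 LXR calls, Apoe, Fabp4 and Fabp5 remained without scaling and with the replicate block, and Npc2, Lipa and Pltp were lost under both. Apoe, called in the LXR list, was at 11640 ± 51.6 and 12200 ± 296 TPM under IFN-γ and at 24740 ± 1112 and 34760 ± 163 TPM under IL-10 (SD, n = 4; -0.55, SE 0.04, limma adjusted p 3.05e-06). Lysosomal Ctsl had a higher uptake difference under IFN-γ (0.27, limma adjusted p 0.00617), with 1303 ± 22.8 and 1262 ± 59.8 TPM there and 3446 ± 66.8 and 2526 ± 35.2 TPM under IL-10 (SD, n = 4). Of the lysosomal calls only those of Ctsl and Psap remained without scaling. Stromal genes gave 6 called of 16, all lower, with Sparc at -2.35 (SE 0.33, limma adjusted p 0.00165). Its log2 difference was -1.43 under IFN-γ, which was not called, and 0.89 under IL-10 (16.3 ± 0.95 and 29.7 ± 3.32 TPM, SD, n = 4), which was (limma adjusted p 0.000273). The summed stromal level under IL-10 was 149 to 159 TPM in non-phagocytic and 254 to 270 TPM in Tconv-phagocytic libraries, and the T cell sums given above also did not overlap there. Their part in these differences was not tested.

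IFN-γ macrophages that had engulfed regulatory T cells give a second reference that shares the 4 Tconv-phagocytic libraries. Of 11980 genes, 1670 (13.9%) were called between the kinds of cargo (limma, adjusted p under 0.05), 1044 higher after Tconv uptake, or 62.5%, a share that became 83.2% without scaling. Of the 31 separated genes named above, which were chosen on the same Tconv-phagocytic values, 4 were called, a count near that 13.9%. Ramp3 was higher after Tconv uptake than after Treg uptake (2.555 ± 1.297 TPM, SD, n = 4; log2 1.28, limma adjusted p 0.0301), as were Ncf1 (165 ± 7.04 TPM; log2 0.58, adjusted p 0.00111) and Hspa8 (558 ± 37.2 TPM; log2 0.63, adjusted p 0.000592). Rtp4 was lower (46.5 ± 8.56 TPM; log2 -0.50, adjusted p 0.0220). The non-phagocytic libraries stood at 1.89 ± 0.39 TPM for Ramp3, 43.8 ± 5.33 TPM for Rtp4, 218 ± 9.10 TPM for Ncf1 and 780 ± 28.5 TPM for Hspa8 (SD, n = 4). Against these, the Treg-phagocytic libraries were themselves lower for Ncf1 (log2 -0.35, limma adjusted p 0.0116) and Hspa8 (-0.43, adjusted p 0.0012), and not called for Ramp3 (0.25, adjusted p 0.721) or Rtp4 (0.13, adjusted p 0.6). No gene was called between the BV421 and Ax647 libraries of the Tconv-phagocytic group (0 of 12526, with 570 at an unadjusted p under 0.05, limma).

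Longer transcripts leaned higher after uptake. With genes put into 4 equal classes by mean annotated transcript length, from shortest to longest, the median log2 difference was -0.05, -0.02, 0.00 and 0.02. It was similar with each dye, but both dyes were set against the same 4 non-phagocytic libraries, so this is no independent support. Separated genes numbered 34 higher (1.12%) and 59 lower (1.95%) in the shortest class and 70 higher (2.31%) and 18 lower (0.594%) in the longest. The classes between held 41 higher and 40 lower, and 39 higher and 25 lower. Over all genes the shares were 1.52% higher and 1.18% lower. Among genes with lower estimates, S100a8, S100a9 and Ifi27l2a are in the shortest class, and Dnajb1, Tnfaip3 and Calcrl, with higher estimates, are in the longest. Against that pattern, Cox7a1, Proscos and Rassf7, with higher estimates, are in the shortest class. A length and GC correction, added after the data were seen, left 0 genes called. With it the log2 estimates were -0.78 for S100a8, -0.90 for S100a9 and -0.13 for Ifi27l2a, against -0.81, -0.93 and -0.15 without. They were 0.56 for Dnajb1, 0.28 for Tnfaip3 and 0.93 for Calcrl, against 0.58, 0.30 and 0.98. Cox7a1, Proscos and Rassf7 moved to 1.9, 0.95 and 1.02 from 1.87, 0.89 and 0.99. The part of length alone was not tested. The share of mitochondrially encoded RNA was 7.87% to 8.74% in non-phagocytic and 7.69% to 8.60% in Tconv-phagocytic libraries.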

How the data were processed

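Per the labels' protocols, RNA was extracted with RNAiso PLUS and libraries were made with a NEBNext Ultra II Directional kit, and the molecule label is poly(A) RNA. The deposited values are TPM per Ensembl gene ID with 2 decimals, per the file headers. STAR, RSEM and mm10 are named in the submitters' processing notes without versions or roles. Coordinates and transcript lengths are from GENCODE vM21 (mm10), and 55141 gene IDs matched a symbol while 346 did not.

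TPM were divided by a scaling factor (unweighted trimmed mean of log2 ratios, 30% of ratios and 5% of mean levels trimmed from each end), and 1 was added before taking log2, which understates the change of low genes. Genes reaching 1 TPM in 4 or more of the libraries fitted (2 or more for the dyes) were tested with limma 3.58.1 (R 4.3.3; lmFit, eBayes with a mean-variance trend), two-sided, with Benjamini-Hochberg adjustment over all genes tested and calls at an adjusted p under 0.05. The comparison of Tconv-phagocytic with non-phagocytic libraries fitted only its 8 libraries. The difference between cytokines fitted 16, the comparison with Treg-phagocytic libraries 8 and that of the dyes 4. Depth is relative: the value of 1 read was read from genes with 1 annotated transcript of 500 to 2000 nt, and precision at low levels is set by few reads. The script was tested on simulated data.

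Genes are named where all 4 libraries of a group lie above all 4 of the other (the 10 largest estimates in each direction with a mean of at least 5 TPM in the group with more and a symbol not of a predicted gene, and such members of 24 gene lists), where a list marks them as key genes, and for the 5 largest called differences between cytokines in each direction. The members, the 24 lists with their 518 genes and the rule were chosen with earlier results of these data known. Some further list members and receptor family genes were named after their values were seen. Alternatives were other scaling, pseudocounts, filters, variance models, sample sets, replicate blocks, single libraries left out, and, added after the data were seen, a length and GC correction and marker sums without their separated genes.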

Additional observations from a re-analysis of the deposited data

Results flagged for a closer look

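Among the 31 genes named by the rule for separate groups, 62 groups of 4 libraries were checked for a library far from the other 3. In 8 such a library was found, where chance gives about 1 in 20 groups. Ramp3 was at 2.47 TPM in non-phagocytic library 2, with the other 3 at 1.69 to 1.70 TPM. Non-phagocytic library 3 stood apart in 3 genes: Ptk2 at 20.18 TPM (others 9.04 to 10.81), Dnajb1 at 17.37 TPM (others 13.46 to 13.73) and Tnfaip3 at 19.48 TPM (others 22.51 to 22.88). Ctla2b was at 14.74 TPM in non-phagocytic library 1, above 10.71 to 11.30 in the others. The BV421-1 Tconv-phagocytic library stood apart in 3 genes as well: Faah at 14 TPM (others 8.65 to 9.50), S100a9 at 12.61 TPM (others 23.33 to 24.25) and Spag5 at 2.14 TPM (others 3.70 to 3.87).

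The log2 difference between Tconv-phagocytic and non-phagocytic libraries was called different between IFN-γ and IL-10 in 236 genes (limma, 16 libraries). The 10 genes given here were named by rule, for the largest called differences in each direction. The difference between the sorted groups was higher under IFN-γ, on the log2 scale, in Ramp3 (1.37), Mmp12 (1.34), Rassf7 (1.16), Unkl (1.12) and the glycine cleavage gene Amt (0.983). It was lower under IFN-γ in Sparc (-2.35), Vcam1 (-2.28), the platelet chemokine gene Ppbp (-1.96), the matrix proteoglycan gene Bgn (-1.73) and Axl (-1.43). The call was kept in all 26 alternatives for Mmp12, Unkl, Sparc, Vcam1, Ppbp and Axl, and lost in 9 for Ramp3, 7 for Rassf7, 6 for Amt and 16 for Bgn.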

How the results depend on the processing

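For Tconv-phagocytic against non-phagocytic libraries, 0 genes were called in the fit of 8 libraries and in most alternatives. The model of all 28 libraries called 116. No filter on low values called 1, Gm38317 (limma adjusted p 0.0184). Leaving out 1 library gave 0 to 2 calls: Gm10146 without non-phagocytic library 3 (adjusted p 0.00135), and Gm7334 and Gm28036 without Ax647-2 (both 0.0140), all predicted genes singled out here after their values were seen. Of genes with an unadjusted p under 0.05, 41.8% were higher, against 71.0% without scaling, when the median over all genes moved from -0.01 to 0.04. The dye comparison gave 0 calls in each alternative.

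For the difference between cytokines, 236 calls became 121 without scaling, 137 with a variance weight per group and 142 to 331 with 1 library left out. The counts were lowest (142 to 154) without IL-10 non-phagocytic 1 (154) or 3 (144) or without IL-10 Tconv-phagocytic BV421-1 (151), BV421-2 (142), Ax647-1 (143) or Ax647-2 (149). For Tconv- against Treg-phagocytic libraries, 1670 calls became 4415 in the model of all 28 libraries (49.5% higher, against 62.5%), 361 at an absolute log2 difference of at least 1 (93.9% higher) and 921 to 1518 with 1 library left out, falling most without BV421-2 (921), Ax647-1 (977) or Ax647-2 (1038) of the Tconv-phagocytic group.

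Samples share only a replicate number: deviations of libraries with the same file number correlated at -0.05 to 0.14, and with the same title number at 0.01 to 0.14, and 3 of 4 Tconv-phagocytic libraries correlated best with their own file number, but 2 of 4 with their own title number. With a replicate block, 0 genes were called between Tconv-phagocytic and non-phagocytic libraries by either number (855 and 815 with an unadjusted p under 0.05), 107 for the difference between cytokines (file number) and 1217 between kinds of cargo.

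Of the single-gene log2 differences within IFN-γ, 0 turned a call around and 13 became calls, all 13 in the model of all 28 libraries. Depth limits genes under 5 TPM most. Leaving out S100a8 and S100a9, chosen after seeing the data, gave neutrophil sums of 13.6 ± 2.53 and 14.5 ± 2.20 TPM without and with uptake, and leaving out Sparc gave stromal sums of 14.7 ± 1.60 and 10.6 ± 2.91 TPM (SD, n = 4).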

Other observations

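Further marker lists gave values only. Of 10 Treg genes tested, 0 were called, and 4 had higher and 6 lower estimates after Tconv uptake under IFN-γ (0 with an unadjusted p under 0.05, limma). Lrrc32, which encodes the TGF-β anchor GARP, was at 5.22 ± 2.97 TPM without and 2.67 ± 0.37 TPM with uptake (SD, n = 4; log2 -0.68, limma adjusted p 0.752). Tnfrsf18, the GITR gene, was at 14.9 ± 4.68 and 20.9 ± 4.69 TPM (SD, n = 4). Of 8 B cell genes, 0 were called (0 unadjusted, limma) and the median was 0.15, with the immunoglobulin heavy chain gene Ighm at 36.7 ± 10.1 and 39.9 ± 2.35 TPM (SD, n = 4). Dendritic cell markers summed to 780 to 880 TPM without and 816 to 855 TPM with uptake, of which 93.2% was Bst2, an interferon-induced gene. The defining marker Flt3 was listed at 0 in all 8 libraries, but 6 of the 11 members had a mean above 1 TPM. Among these were Clec10a at 22.6 ± 3.63 and 21.5 ± 3.16 TPM, Batf3 at 20.5 ± 3.29 and 24.5 ± 2.97 TPM and Clec9a at 5.65 ± 3.55 and 4.80 ± 2.23 TPM (SD, n = 4). The haemoglobin gene Hbb-bs was at 8.38, 20.9, 13.5 and 4.38 TPM without and 18.1, 12.6, 17.4 and 17.0 TPM with uptake, which overlap. The genes of this paragraph other than Hbb-bs and Flt3 were picked after their values were seen.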
